A study of Homo sapiens with 24 samples.

Results

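The untreated parental cells of J82 and RT-112 were compared by RNA-seq of total RNA, with 3 libraries for each line out of 24 in the series. The libraries were taken by their labels, with no measured value in the rule: those titled as parental J82 and as parental RT-112, both marked as controls for CD44 and for its v6 isoform, the hyaluronan receptor and splice variant that the study varied. The other 18 libraries came from cell lines newly derived from the same lines with low CD44, high CD44 or high CD44v6, again 3 of each, and served here only to see whether a line difference recurred. No treatment, transgene or deletion is named for any of these groups, and the series' design text calls the 3 libraries of a group biological replicates. J82 and RT-112 are established lines grown from human bladder cancers, and each is a single line, so the p-values below describe 2 lines and not 2 kinds of tumour. Line and any batch of culture or library preparation cannot be told apart.

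The urothelium, the lining of the bladder, is a layered epithelium held together by cadherin, claudin and desmosome junctions, with keratin 5 and p63 in its basal cells and uroplakins at its luminal surface. In an epithelial-mesenchymal transition, cells lose E-cadherin and the epithelial splicing factors ESRP1 and ESRP2 and gain vimentin, N-cadherin and the ZEB repressors. FGFR3, a receptor tyrosine kinase for fibroblast growth factors, is a well-known oncogene of bladder cancer, mostly in tumours that keep urothelial features.

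Total counts ran from 17649580 to 22890589 per library, and the replicates of each line differed by more than counting noise (chi-square per degree of freedom from 6.03 to 11.4 over pairs of replicates). Of 35993 genes in the deposited count table, 15990 passed the filter on low counts, and 11650 had 0 counts in all 6 libraries. RNAs of the signal recognition particle and 7SK took 5.67 to 6.77% of counts in J82 and 6.88 to 7.76% in RT-112, and ribosomal protein genes 3.47 to 3.74% and 4.19 to 4.56%; their part in the results was not tested. Of 25 markers of other cell types, 12 had 0 counts in every library, among them PTPRC, CD3E, CLDN5, DES and DCN, and the summed level of all 25 was 216 to 237 CPM in J82 and 198 to 226 CPM in RT-112. The sums rested on different genes: without PDGFRB, DCN and LUM they were 192 to 216 CPM in J82 and 33.9 to 38.1 CPM in RT-112. Their part in the results was not tested. Of the 5 that could be tested, CD68, MBP and PDGFRB were higher in J82, and LUM and PECAM1 were higher in RT-112; CD68, a lysosomal protein of macrophages, was at 164 ± 12.6 CPM in J82 and 11.5 ± 0.653 CPM in RT-112, and LUM was at 13.7 ± 0.901 CPM in J82 and 172 ± 13.7 CPM in RT-112.

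Between the lines, 11782 of 15990 genes tested, or 73.7%, passed edgeR's quasi-likelihood test at an adjusted p under 0.05, with 5859 higher in J82 (36.6%) and 5923 lower (37%). A difference is called large below where it passed that test and was at least 4-fold, that is 2 on the log2 scale. Large differences numbered 3313 (20.7%), of which 1707 were higher in J82 (10.7%) and 1606 lower (10%). The groups did not overlap for 12274 genes (76.8%). All log2 differences are J82 minus RT-112 with their standard error (written SE or after ±), means of levels are given ± SD (n = 3), and levels are CPM, the share of a library's counts scaled to a fixed total, after TMM scaling. CPM is not adjusted for gene length, so levels of different genes are not compared. Where a gene had 0 counts in every library of one line, its fold is a lower bound, set against a floor of 3 counts per library.

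The 4 genes that mark the lines put E-cadherin, ESRP1 and FGFR3 in RT-112 and vimentin in J82. CDH1, which encodes E-cadherin, read 2.29, 2.49 and 2.73 CPM in J82 and 295, 317 and 322 CPM in RT-112, a log2 difference of -6.96 (SE 0.09, adjusted p = 1.56e-14). ESRP1 had 0 counts in every library in J82 and 209, 206 and 219 CPM in RT-112, at least 1413-fold higher in RT-112 (adjusted p = 1.88e-13). FGFR3 read 4.36, 3.74 and 5.61 CPM in J82 and 248, 267 and 263 CPM in RT-112, a log2 difference of -5.82 (SE 0.11, adjusted p = 1.12e-13). VIM, the intermediate filament protein of mesenchymal cells, read 374, 350.2 and 364 CPM in J82 and 1.54, 1.70 and 2.29 CPM in RT-112, a log2 difference of 7.60 (SE 0.10, adjusted p = 1.97e-14). In each of the 4 genes the 3 libraries of a line lay close together and the lines were far apart. In bulk RNA, fewer cells making a transcript and less of it per cell cannot be told apart.

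**Figure D1:**
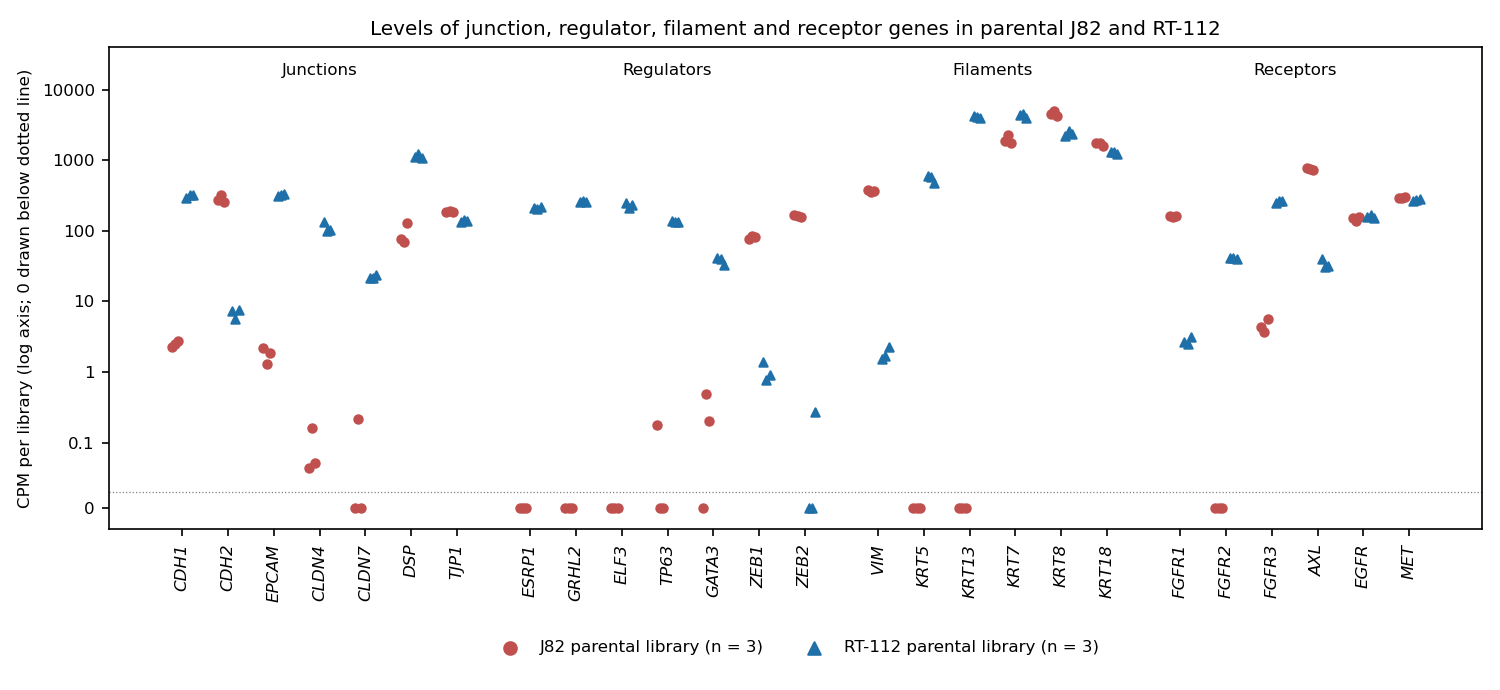
Levels of marker, junction, lineage and receptor genes in each parental library; each point is 1 library (circles J82, triangles RT-112), and the vertical axis is CPM on a log scale with 0 drawn below the dotted line. CDH1, EPCAM, ESRP1 and KRT13 are high in RT-112, where CDH1 averages 311 CPM, CDH2, VIM, FGFR1 and AXL are high in J82, where VIM averages 363 CPM, and EGFR and MET lie together.

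Genes of cell-cell junctions were mostly lower in J82. Of 11 adherens junction genes, 10 were called lower in J82 and 1 higher, and 5 of the 10 lower ones were large. Over all genes 37% were called lower and 36.6% higher. The large ones were 45.5% of the 11, against 20.7% over all genes. The median log2 difference of the 11 was -1.46, against -0.0058 over all genes tested, and 1 passed the filter through RT-112 alone. The large ones besides CDH1 were CDH3 or P-cadherin (-7.37 ± 0.13), NECTIN1 (-5.74 ± 0.14), NECTIN4 (-7.78 ± 0.28) and JUP, which encodes plakoglobin, a catenin of adherens junctions and desmosomes. JUP read 5.60, 4.33 and 4.42 CPM in J82 and 185, 196 and 161 CPM in RT-112, a log2 difference of -5.23 (SE 0.11, adjusted p = 3.58e-13). The cytoplasmic catenins CTNNA1, CTNNB1 and CTNND1 differed less, with log2 differences of -0.17 ± 0.066, -0.77 ± 0.061 and -1.46 ± 0.057. NECTIN2, the member that was higher in J82, was at 44.1 ± 1.78 CPM in J82 and 35.6 ± 1.46 CPM in RT-112, a log2 difference of 0.31 ± 0.073 that lost its call with all 24 libraries in the fit (adjusted p = 0.0521).

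Desmosomes, which anchor keratin filaments at the cell border, showed the same direction in 10 of 11 members, 6 of them large, with a median of -3.62. Large differences were 54.5% of the 11, against 20.7% over all genes, and 2 members passed the filter through RT-112 alone. DSP, the plaque protein desmoplakin, read 75.7, 69.6 and 129.6 CPM in J82 and 1107, 1206 and 1059.5 CPM in RT-112, a log2 difference of -3.62 (SE 0.19, adjusted p = 1.67e-09). EVPL, which encodes envoplakin, had 0 counts in every library in J82 and 143, 150.3 and 132 CPM in RT-112 and was at least 948-fold higher in RT-112 (adjusted p = 6.51e-13). PERP, PPL and PKP1 were lower by large differences too, at -4.91 ± 0.094, -4.28 ± 0.11 and -6.04 ± 0.16, and DSG3 had 0 counts in J82 and averaged 3.40 CPM in RT-112. Other members differed by less: DSC3 was at 46 ± 3.85 CPM in J82 and 55.8 ± 2.22 CPM in RT-112, and PKP2 was not called, at 67.6 ± 2.13 CPM in J82 and 61.5 ± 1.35 CPM in RT-112 (adjusted p = 0.0626).

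Of 18 tight junction genes, 12 were called lower in J82 (10 of them large) and 3 higher (1 large), with 3 not called. Tight junction genes had a median log2 difference of -2.10, and 61.1% were large, against 20.7% over all genes. The filter was passed by 4 through RT-112 alone and by 1 through J82 alone. CLDN4, a sealing claudin, read 0.0441, 0.162 and 0.0514 CPM in J82 and 135, 99.9 and 103 CPM in RT-112, a log2 difference of -10.31 (SE 0.25, adjusted p = 8.73e-13). CLDN7 read 0, 0.217 and 0 CPM in J82 and 21.3, 21.7 and 23.8 CPM in RT-112, a log2 difference of -8.27 (SE 0.36, adjusted p = 2.86e-10). The cytoplasmic scaffold TJP3 (ZO-3) had 0 counts in every library in J82 and 9.93, 13 and 14.2 CPM in RT-112, while its relative TJP1 (ZO-1) was higher in J82, at 0.46 ± 0.055. Occludin, OCLN, was higher in J82 as well, at 66.2 ± 6.16 CPM in J82 and 19.7 ± 2.09 CPM in RT-112, a log2 difference of 1.75 (SE 0.10, adjusted p = 2.98e-09). CLDN11 went against the other claudins: it read 6.57, 5.04 and 4.58 CPM in J82 and 0, 0.0897 and 0 CPM in RT-112, 169.6-fold higher in J82, with a 95% exact counting interval of 46.6 to 1407 (adjusted p = 3.61e-08). F11R, LSR, CXADR and MARVELD2, all membrane proteins of tight or neighbouring junctions, were lower in J82 by large differences of -3.30 ± 0.065, -3.53 ± 0.12, -5.17 ± 0.17 and -2.26 ± 0.11.

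The connexins of gap junctions split by gene. GJA1, or connexin 43, read 65.4, 79.6 and 53.9 CPM in J82 and 2.11, 2.56 and 2.47 CPM in RT-112, a log2 difference of 4.79 (SE 0.16, adjusted p = 2.28e-11). GJB2, GJB5 and GJB6 had 0 counts in every J82 library, and in RT-112 they averaged 40.7, 18.8 and 72.8 CPM. Of 8 connexin genes tested, 5 were lower in J82 by large differences, and GJA1, GJA5 and GJC1 were higher; 4 passed the filter through RT-112 alone. Connexin genes had a median log2 difference of -7.76, or -5.45 with genes at 0 counts in one line set to their bound. Of the 8, 87.5% were large, against 20.7% over all genes.

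At the cell base, 8 of 9 hemidesmosome and laminin-332 genes were called lower in J82, 6 by large differences. Hemidesmosome genes had a median log2 difference of -4.10, and 66.7% were large, against 20.7% over all genes. ITGB4, the integrin subunit of hemidesmosomes, read 3.26, 1.89 and 2.98 CPM in J82 and 267, 288 and 249.6 CPM in RT-112, a log2 difference of -6.61 (SE 0.13, adjusted p = 1.47e-13). Its partner ITGA6 was lower at -2.13 ± 0.076, COL17A1 at -7.45 ± 0.12, and the laminin chains LAMA3 and LAMB3 at -4.15 ± 0.074 and -6.03 ± 0.11. The linker proteins PLEC and DST differed little, at -0.30 ± 0.091 and -0.26 ± 0.063, and the tetraspanin CD151 was higher in J82 at 1.55 ± 0.059. Among 10 polarity genes tested, CRB3, PATJ and LLGL2 were lower by large differences and no member was higher by one. Polarity genes had a median log2 difference of -0.43. Large differences made up 30% of them, against 20.7% over all genes, and 1 passed the filter through RT-112 alone. PATJ read 11.1, 10.4 and 9.98 CPM in J82 and 140.4, 151 and 151 CPM in RT-112, a log2 difference of -3.81 (SE 0.074, adjusted p = 1.85e-13). CRB3, the apical Crumbs protein of epithelia, had 0 counts in every library in J82 and 5.42, 7.62 and 6.41 CPM in RT-112, whereas the kinase PRKCI was not called, at 162 ± 9.16 CPM in J82 and 166 ± 15.6 CPM in RT-112 (adjusted p = 0.702).

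**Figure D2:**
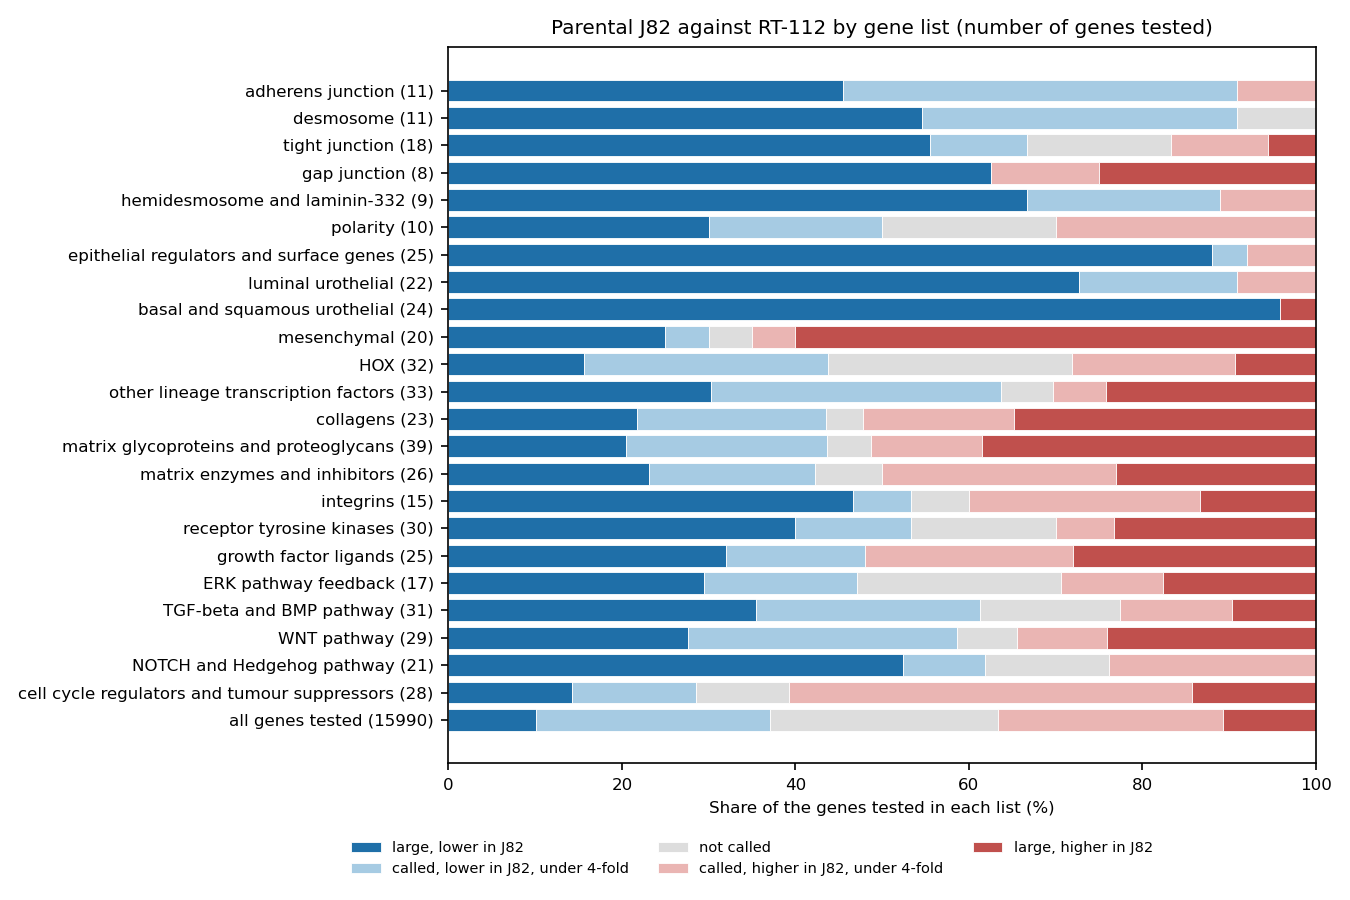
Make-up of each gene list in percent of its tested members (number in brackets), from large and lower in J82 at the left to large and higher in J82 at the right, with all genes tested in the bottom bar (10% and 10.7%). Basal genes are large and lower in 23 of 24 and epithelial regulators in 22 of 25, and mesenchymal genes are large and higher in 12 of 20.

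Transcription factors and surface proteins of epithelia were mostly lower in J82: 22 of 25 were lower in J82 by large differences and none was higher by one, though 14 passed the filter through RT-112 alone (1, MUC1, was higher by a large difference without J82 replicate 2). For this list the median log2 difference of those tested was -7.49, or -5.84 with genes at 0 counts in one line set to their bound. Of the 25, 88% were large, against 20.7% over all genes. GRHL2, a grainyhead factor that maintains epithelial genes, had 0 counts in every library in J82 and 253, 265 and 256 CPM in RT-112, at least 1724-fold higher in RT-112 (adjusted p = 1.42e-13). ELF3 and EHF, epithelial ETS factors, also had 0 counts in J82, against 250.3, 208 and 229.8 CPM and 274, 284 and 299 CPM in RT-112. The second splicing factor, ESRP2, was low but not absent in J82: it read 1.72, 1.57 and 1.44 CPM in J82 and 40.5, 45 and 37.3 CPM in RT-112, a log2 difference of -4.69 (SE 0.13, adjusted p = 4.32e-12). EPCAM, the epithelial adhesion molecule, read 2.16, 1.30 and 1.85 CPM in J82 and 310.3, 325 and 337 CPM in RT-112, a log2 difference of -7.49 (SE 0.11, adjusted p = 3.24e-14). ST14 and SPINT1, matriptase and its inhibitor, were lower at -10.18 ± 0.26 and -8.14 ± 0.24, and RAB25 and LAD1 had 0 counts in J82 against 29.1 and 295 CPM. The factor KLF5 differed by less, at 60.4 ± 3.90 CPM in J82 and 233 ± 23.6 CPM in RT-112 (-1.95 ± 0.08), and MARVELD1 and MUC1 were called higher in J82, at 0.53 ± 0.10 and 1.82 ± 0.34.

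ZEB and SNAIL repressors are known to bind the E-box CACCTG, and its reverse complement CAGGTG, so promoters of junction and epithelial genes that were lower in J82 are shown beside that of VIM, which was higher. Of these repressors, ZEB1 and ZEB2 were higher in J82, SNAI2 was lower and SNAI1 did not pass the filter. Their part in the results was not tested. Each line gives 250 bases before the start of transcription, 5′ to 3′ on the gene's strand, from RefSeq (GRCh38.p14), with the E-box in capitals. CLDN7 lies at chr17:7262479-7262728 on the minus strand, LAD1 at chr1:201399325-201399574 on the minus strand, JUP at chr17:41785977-41786226 on the minus strand and VIM at chr10:17227991-17228240 on the plus strand.
CLDN7: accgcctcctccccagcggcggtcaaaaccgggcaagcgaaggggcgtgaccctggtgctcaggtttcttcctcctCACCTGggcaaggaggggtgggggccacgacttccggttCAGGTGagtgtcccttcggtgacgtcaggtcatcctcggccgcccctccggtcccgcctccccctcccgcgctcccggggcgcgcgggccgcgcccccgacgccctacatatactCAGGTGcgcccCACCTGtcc
LAD1: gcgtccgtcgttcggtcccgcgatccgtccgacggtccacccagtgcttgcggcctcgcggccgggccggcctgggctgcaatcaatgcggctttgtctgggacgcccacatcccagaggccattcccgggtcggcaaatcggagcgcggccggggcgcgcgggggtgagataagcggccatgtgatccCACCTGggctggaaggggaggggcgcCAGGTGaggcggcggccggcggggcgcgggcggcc
JUP: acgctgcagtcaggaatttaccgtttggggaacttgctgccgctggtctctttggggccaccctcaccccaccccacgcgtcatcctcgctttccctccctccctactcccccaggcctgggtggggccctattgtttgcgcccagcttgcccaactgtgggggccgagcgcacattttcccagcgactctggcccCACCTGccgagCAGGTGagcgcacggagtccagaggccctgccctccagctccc
VIM: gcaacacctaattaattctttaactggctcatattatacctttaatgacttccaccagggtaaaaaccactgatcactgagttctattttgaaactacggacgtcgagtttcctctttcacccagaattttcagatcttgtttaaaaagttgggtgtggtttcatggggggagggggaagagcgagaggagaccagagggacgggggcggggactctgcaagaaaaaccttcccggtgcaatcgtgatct
The E-box occurred 4 times in the CLDN7 window, 2 times in those of LAD1 and JUP and 0 times in that of VIM. The window of RAB25, looked up in the same way but not printed, held 1. These genes were picked by hand, and for each the promoter with the most matches was taken. Their counts are therefore no comparison of lower with higher genes. Over all 35116 RefSeq promoters of this length, 6143 held the E-box (17.5%), counting either strand. Among the listed genes that had a promoter in the table, it was present in 11 of 19 promoters of the epithelial regulators (57.9%), 11 of 16 of the basal and squamous genes (68.8%), 5 of 19 of the tight junction genes (26.3%), 4 of 36 of the mesenchymal genes (11.1%) and 1 of 27 of the HOX genes (3.7%). Among the other 20 lists the share was lowest, at 0, for the ERK feedback genes (0 of 21), the 4 marker genes (0 of 2) and the gap junction genes. The gap junction genes, mostly lower in J82, had 6 promoters. It was highest for the desmosome genes, at 3 of 8 (37.5%). It was 11.5% for the TGF-beta and BMP genes, called lower in J82 19 times and higher 7 times. For the growth factor ligands, which differed in both directions, it was 35.3%. The share thus did not follow the direction of a list throughout. The 5 lists named before had a promoter for 14, 13, 12, 15 and 20 genes; genes with several are counted once for each (CLDN7 and JUP have 2, of which 1 is shown), and a match is a description of letters, not of binding.

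Luminal and basal genes of the urothelium were both mostly lower in J82. Of 22 luminal genes tested, 16 were lower by large differences and none higher by one; 10 passed the filter through RT-112 alone. Luminal genes had a median log2 difference of -5.35, or -3.67 with genes at 0 counts in one line set to their bound. Of the 22, 72.7% were large, against 20.7% over all genes. The uroplakin UPK1B had 0 counts in every library in J82 and 485, 471 and 468 CPM in RT-112, at least 3173-fold higher in RT-112 (adjusted p = 8.18e-14). FABP4, a fatty acid binding protein and target of PPARG, read 0, 0.162 and 0.257 CPM in J82 and 1868, 1622 and 1495 CPM in RT-112, a log2 difference of -13.55 (SE 0.22, adjusted p = 5.48e-14). The luminal factors GATA3 and FOXA1 were lower at -7.41 ± 0.31 and -5.19 ± 0.15, while PPARG was at 34.2 ± 0.0437 CPM in J82 and 191 ± 4.97 CPM in RT-112, a log2 difference of -2.48 ± 0.059. VGLL1, a TEAD cofactor, and KRT20 had 0 counts in J82 and averaged 33.6 and 6.18 CPM in RT-112.

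Every one of the 24 basal and squamous genes tested showed a large difference, 23 lower in J82 and 1 higher; 18 passed the filter through RT-112 alone and 1 through J82 alone. Basal and squamous genes had a median log2 difference of -10.06, or -6.57 with genes at 0 counts in one line set to their bound. Over all genes 20.7% showed a large difference. KRT5, the keratin of basal cells, had 0 counts in every library in J82 and 603, 582 and 477 CPM in RT-112, at least 3703-fold higher in RT-112 (adjusted p = 9.58e-13). KRT13, a keratin of intermediate urothelial and squamous cells, had 0 counts in every library in J82 and 4243, 4055 and 3890.2 CPM in RT-112, at least 27150.4-fold higher in RT-112 (adjusted p = 7.93e-14). TP63, which encodes the basal factor p63, read 0.176, 0 and 0 CPM in J82 and 137, 135 and 134 CPM in RT-112, a log2 difference of -10.88 (SE 0.21, adjusted p = 1.67e-13). IVL (involucrin), LY6D, S100A9 and TRIM29 averaged 405, 205, 279 and 234 CPM in RT-112 and 0.216, 0, 0 and 2.03 CPM in J82. The exception was PI3, the elastase inhibitor elafin, at 1.01, 0.596 and 1.08 CPM in J82 and 0 counts in every library in RT-112, a low level. Reads of KRT6A, KRT6B and KRT6C, near-identical copies, may be divided uncertainly among them.

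The following keratins, chosen after their values were seen, had counts in J82. The simple epithelial pair KRT8 and KRT18 was higher there: KRT8 read 4569, 4968 and 4173 CPM in J82 and 2227, 2576 and 2373 CPM in RT-112, a log2 difference of 0.93 ± 0.087, and KRT18 read 1753, 1776 and 1605 CPM in J82 and 1316, 1299 and 1218 CPM in RT-112, a log2 difference of 0.42 ± 0.07. KRT7 was lower at -1.13 ± 0.10, with 1968 ± 279 CPM in J82 and 4307 ± 279 CPM in RT-112. KRT19 and KRT17 were lower by large differences, -2.72 ± 0.09 and -4.75 ± 0.10, but still averaged 374 and 71 CPM in J82.

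Of 25 mesenchymal genes, 20 were tested; 12 were higher in J82 by large differences and 5 lower, with 8 that passed the filter through J82 alone and 1 through RT-112 alone. In this list the median log2 difference of those tested was 5.50, or 3.73 with genes at 0 counts in one line set to their bound. Of the 20, 85% were large, against 20.7% over all genes. N-cadherin, CDH2, read 275, 319.8 and 257 CPM in J82 and 7.36, 5.70 and 7.53 CPM in RT-112, a log2 difference of 5.37 (SE 0.12, adjusted p = 3.84e-13). The repressor ZEB1 read 77.1, 83.3 and 81.2 CPM in J82 and 1.37, 0.762 and 0.897 CPM in RT-112, a log2 difference of 6.34 (SE 0.13, adjusted p = 3.26e-13). ZEB2 read 166, 165 and 155 CPM in J82 and 0, 0 and 0.269 CPM in RT-112, a log2 difference of 10.62 (SE 0.23, adjusted p = 3.64e-13). MSN, the actin linker moesin, read 479, 535 and 447 CPM in J82 and 0, 0.404 and 0.359 CPM in RT-112, a log2 difference of 10.77 (SE 0.20, adjusted p = 1.35e-13). Both ZEB genes, MSN and CDH2 were thus above RT-112 in every J82 library. The groups did not overlap, in either direction, for any of the 20 genes tested and for 76.8% of all genes. TWIST1, TCF4 and PDGFRB had 0 counts in RT-112 and averaged 6.51, 9.43 and 8.12 CPM in J82.

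Other genes of the same list went the other way or were low in both lines. SNAI2, the SNAIL-family repressor Slug, read 27.1, 22.4 and 27.1 CPM in J82 and 138, 125 and 127 CPM in RT-112, a log2 difference of -2.34 (SE 0.082, adjusted p = 3.36e-11). TAGLN, S100A4 and ACTA2, markers of contractile or migrating mesenchymal cells, were also higher in RT-112, at -2.65 ± 0.21, -3.0 ± 0.15 and -2.23 ± 0.28, and TWIST2 had 0 counts in every library in J82 and 1.14, 0.673 and 1.66 CPM in RT-112. SNAI1, CDH11, FOXC2, THY1 and PDGFRA did not pass the filter on low counts. QKI, an RNA-binding protein, was not called, at 157 ± 8.18 CPM in J82 and 169 ± 2.14 CPM in RT-112 (adjusted p = 0.0980).

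**Figure D3:**
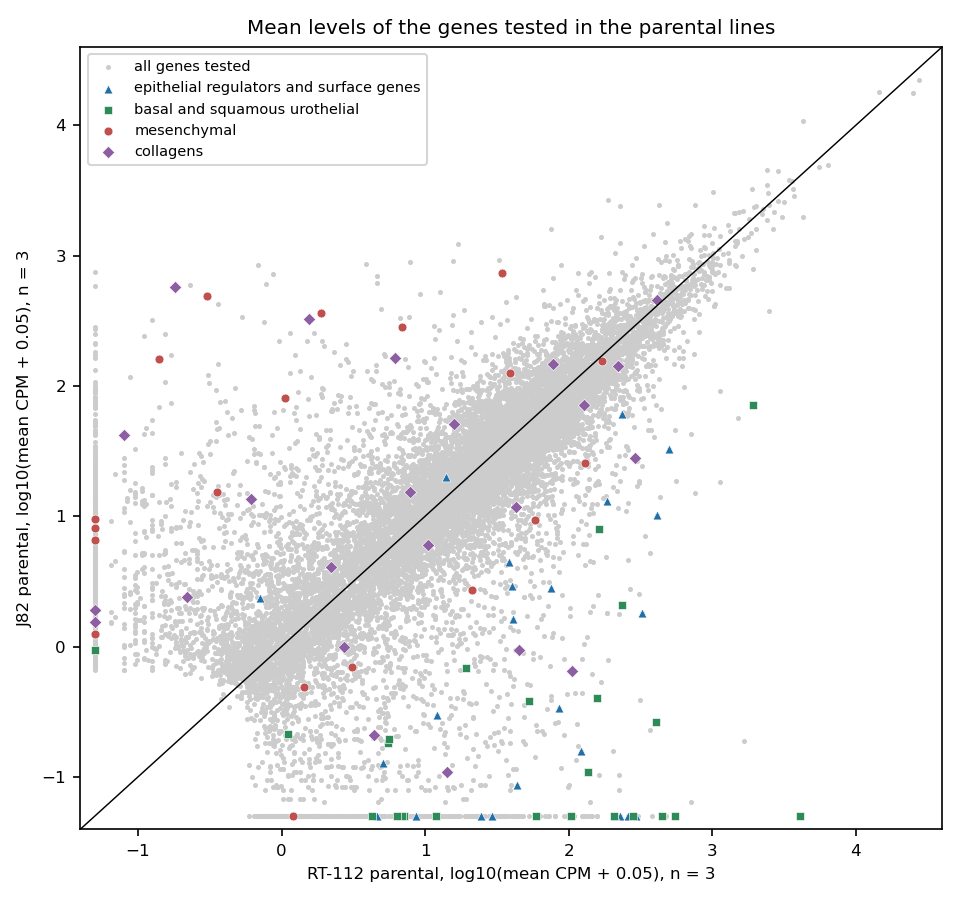
Mean level of each gene tested in RT-112 (horizontal) against J82 (vertical), as log10 of CPM plus 0.05, with the epithelial regulator, basal, mesenchymal and collagen lists coloured over all genes in grey and a line at equal levels. Basal and regulator genes gather at the lower right, and the mesenchymal genes divide between the upper left (ZEB2, 162 CPM in J82) and the lower right (SNAI2, 130.0 CPM in RT-112).

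HOX genes, which record position along the body axis, showed large differences in 25% of those tested, close to the 20.7% over all genes. Of 39, 32 were tested: 9 were called higher in J82 and 14 lower, 9 were not called, and 3 and 5 of them were large. The share called is near the 73.7% called over all genes. HOX genes had a median log2 difference of -0.46. Of the 32, 2 passed the filter through J82 alone and 4 through RT-112 alone. HOXA10 had 6.30, 4.11 and 6.94 CPM in J82 and 0 counts in every library in RT-112, at least 39.4-fold higher in J82 (adjusted p = 9.89e-08). HOXB8 showed the reverse, with 0 counts in every library in J82 and 3.65, 2.91 and 2.74 CPM in RT-112. HOXA5 was lower in J82 at -2.35 ± 0.25, HOXD10 was higher at 2.25 ± 0.26, and HOXA13, the HOX gene of the hindgut and bladder region, was not called, at 4.26 ± 0.357 CPM in J82 and 5.43 ± 0.350 CPM in RT-112 (adjusted p = 0.0720). HOXB7 was lower in J82 by a small amount, at 47.8 ± 3.63 CPM in J82 and 73 ± 7.41 CPM in RT-112.

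Of 43 other lineage factors, 33 were tested, with 8 large differences higher in J82 and 10 lower. These lineage factors had a median log2 difference of -0.60, and 54.5% were large, against 20.7% over all genes. The filter was passed by 4 through J82 alone and by 4 through RT-112 alone. PAX6, an eye and neural factor, had 17.7, 21.5 and 20.6 CPM in J82 and 0 counts in every library in RT-112, at least 136-fold higher in J82 (adjusted p = 2.61e-10). LHX9 also had 0 counts in RT-112, against 9.0 CPM in J82. GATA2 read 314, 300.2 and 315 CPM in J82 and 25.5, 24.5 and 22.8 CPM in RT-112, a log2 difference of 3.67 (SE 0.067, adjusted p = 1.16e-13), the opposite of GATA3. The AP-2 factors divided in the same way: TFAP2A was higher in J82 at 2.85 ± 0.12 and TFAP2C lower at -7.80 ± 0.28. FOXQ1, IRX3, MSX2 and MEIS1 were lower in J82, at -5.86 ± 0.12, -4.46 ± 0.15, -3.33 ± 0.077 and -3.27 ± 0.14.

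Receptor tyrosine kinases differed in both directions: of 30 tested, 7 were higher in J82 by large differences and 12 lower. Of these 30, 5 passed the filter through J82 alone and 7 through RT-112 alone. The kinases had a median log2 difference of -1.15, and 63.3% were large, against 20.7% over all genes. FGFR1 read 159.8, 159 and 162 CPM in J82 and 2.63, 2.51 and 3.18 CPM in RT-112, a log2 difference of 5.84 (SE 0.09, adjusted p = 3.93e-14). FGFR2 had 0 counts in every library in J82 and 41, 41.3 and 39.3 CPM in RT-112, at least 271-fold higher in RT-112 (adjusted p = 1.02e-11). FGFR1 was thus the FGF receptor that was higher in J82, and FGFR2 and FGFR3 were higher in RT-112, as was FGFR4, with 0 counts in J82 and 0.724 CPM in RT-112. AXL, the receptor of GAS6, read 765, 741 and 714 CPM in J82 and 39.8, 30.7 and 31.7 CPM in RT-112, a log2 difference of 4.45 (SE 0.10, adjusted p = 4.13e-13). ROR2, PDGFRB and FLT1 had 0 counts in RT-112 and averaged 13.4, 8.12 and 12.6 CPM in J82. In the other direction, EPHB6 was lower in J82 at -9.01 ± 0.22, EPHA1 had 0 counts there against 42.9 CPM, and ERBB3, DDR1 and PTK7 were lower at -2.65 ± 0.077, -2.65 ± 0.079 and -2.85 ± 0.075.

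EGFR, MET, INSR, ROR1 and RET were not called. EGFR read 152, 138 and 155 CPM in J82 and 158, 168 and 151 CPM in RT-112, a log2 difference of -0.10 ± 0.065 (adjusted p = 0.172), and MET read 289.6, 291 and 306 CPM in J82 and 268, 271 and 282 CPM in RT-112, a log2 difference of 0.11 ± 0.056 (adjusted p = 0.0930). The values of the lines overlapped for EGFR and did not for MET. ERBB2 was lower in J82 at 32.7 ± 1.62 CPM in J82 and 80.6 ± 4.57 CPM in RT-112, -1.30 ± 0.072.

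Growth factors also differed in both directions. Of 25 growth factor genes tested, 13 were called higher in J82 and 12 lower, with 7 and 8 large. The ligands had a median log2 difference of 0.22, and 60% were large, against 20.7% over all genes. Over all genes 36.6% were called higher and 37% lower. Of the 25, 3 passed the filter through J82 alone and 6 through RT-112 alone. FGF2, a ligand of FGFR1, had 101, 101 and 100.3 CPM in J82 and 0 counts in every library in RT-112, at least 688-fold higher in J82 (adjusted p = 5.51e-13). NRG1, a ligand of ERBB3, was higher in J82 at 4.75 ± 0.083, the line with less ERBB3. GAS6 read 42.7, 40.0 and 41.2 CPM in J82 and 3.71, 4.39 and 4.13 CPM in RT-112, a log2 difference of 3.33 (SE 0.10, adjusted p = 9.68e-12), the same direction as its receptor AXL. VEGFC was higher in J82 at 4.22 ± 0.12, and the EGFR ligand TGFA was lower at -6.50 ± 0.25. IGF2 read 0, 0.108 and 0 CPM in J82 and 109, 108 and 86.1 CPM in RT-112, 3045-fold higher in RT-112, with a 95% exact counting interval of 843 to 25153 (adjusted p = 8.17e-13). The ephrins EFNB1 and EFNB2 were lower in J82 at -4.32 ± 0.10 and -4.11 ± 0.11.

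Feedback genes of the ERK pathway, which rise when the kinase cascade is active, were called in both directions. Of 17 tested, 5 were called higher in J82 (3 large), 8 lower (5 large) and 4 were not called. Over all genes 36.6% were called higher and 37% lower. The large ones were 47.1% of the 17, against 20.7% over all genes. These feedback genes had a median log2 difference of -0.28. Through J82 alone 1 passed the filter, and through RT-112 alone 1. DUSP6, a phosphatase of ERK, read 7.58, 8.18 and 7.61 CPM in J82 and 51.8, 50.9 and 56.1 CPM in RT-112, a log2 difference of -2.76 (SE 0.089, adjusted p = 1.38e-11). SPRY2, an inhibitor of the same cascade, read 35.2, 37.8 and 32.3 CPM in J82 and 4.57, 3.41 and 2.96 CPM in RT-112, a log2 difference of 3.28 (SE 0.14, adjusted p = 2.74e-10). PHLDA1, ETV4 and DUSP5 were lower in J82 at -3.48 ± 0.066, -2.01 ± 0.11 and -2.43 ± 0.10, while FOSL1 and ETV1 were higher at 3.07 ± 0.14 and 5.75 ± 0.51. EGR1, SPRY1, SPRY4 and SPRED1 were not called, with EGR1 at 13 ± 2.57 CPM in J82 and 11 ± 1.78 CPM in RT-112 (adjusted p = 0.178).

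In the TGF-beta and BMP pathway, 31 genes were tested, of which 7 were called higher in J82 (3 large) and 19 lower (11 large). Over all genes 36.6% were called higher and 37% lower. The large ones were 45.2% of the 31, against 20.7% over all genes. Pathway members had a median log2 difference of -0.62. The filter was passed by 1 through J82 alone and by 3 through RT-112 alone. The ligand TGFB2 read 636, 602 and 605 CPM in J82 and 5.19, 4.89 and 3.68 CPM in RT-112, a log2 difference of 7.07 (SE 0.10, adjusted p = 2.94e-14), and TGFB1 was lower in J82 at -2.43 ± 0.15. The receptor TGFBR2 read 8.42, 6.01 and 6.99 CPM in J82 and 136, 141 and 139 CPM in RT-112, a log2 difference of -4.27 (SE 0.10, adjusted p = 6.02e-13), whereas TGFBR1 was higher in J82 at 1.69 ± 0.064. TGFB2 and its type II receptor TGFBR2 thus differed in opposite directions. The BMP targets ID1, ID2 and ID4 were lower in J82 at -2.47 ± 0.10, -3.31 ± 0.19 and -4.12 ± 0.16, although the ligand BMP4 was higher there at 3.74 ± 0.12. SMAD7, a TGF-beta feedback gene, was not called, at 10.6 ± 1.41 CPM in J82 and 10.3 ± 3.36 CPM in RT-112 (adjusted p = 0.843), and SKIL, a repressor of SMAD factors, was lower in J82 at -2.68 ± 0.062.

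Among 29 WNT pathway genes tested, 7 were higher in J82 by large differences and 8 lower. Tested WNT genes had a median log2 difference of -0.58. Large differences made up 51.7% of them, against 20.7% over all genes. Through J82 alone 2 passed the filter, and through RT-112 alone 5. The ligands WNT5A and WNT5B, linked to non-canonical signalling, were higher in J82 at 2.35 ± 0.13 and 5.27 ± 0.13, and their co-receptor ROR2 had 0 counts in RT-112. WNT7B, WNT10A and WNT11 were higher in RT-112: the first 2 differed by -4.08 ± 0.17 and -6.78 ± 0.25, and WNT11 had 0 counts in every library in J82 and 47.9, 48.9 and 43.5 CPM in RT-112. LEF1 and AXIN2, a factor and a target of canonical signalling, had 0 counts in RT-112 and averaged 4.29 and 2.01 CPM in J82, while the target RNF43 had 0 counts in J82 and averaged 1.20 CPM in RT-112.

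NOTCH pathway genes were mostly lower in J82. Of 21 NOTCH and Hedgehog genes tested, 11 were lower by large differences and none was higher by one; 5 passed the filter through RT-112 alone and 2 through J82 alone. Leaving out 1 library raised the higher count to 1: HHIP, which the filter had left out, without J82 replicate 3 or RT-112 replicate 1, and DLL3 without RT-112 replicate 3. NOTCH and Hedgehog genes had a median log2 difference of -2.04, and 52.4% were large, against 20.7% over all genes. The ligand JAG1 read 11.8, 12.7 and 12.8 CPM in J82 and 135, 125 and 126 CPM in RT-112, a log2 difference of -3.38 (SE 0.073, adjusted p = 3.84e-13). The receptor NOTCH3 was lower at -7.44 ± 0.39, and the targets HES1, HEY1 and NRARP were lower at -2.04 ± 0.085, -2.65 ± 0.22 and -2.83 ± 0.25. In all, 13 were called lower, 5 higher and 3 were not called. Among the 5 higher were DLL3 at 1.78 ± 0.45 (not called with all 24 libraries in the fit, adjusted p = 0.113) and the receptor NOTCH2, at 155 ± 5.75 CPM in J82 and 80.2 ± 2.36 CPM in RT-112 (0.95 ± 0.058). SHH, the Hedgehog ligand of basal urothelium, had 0 counts in every library in J82 and 9.53, 7.13 and 6.28 CPM in RT-112.

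Collagen genes differed in both directions. Of 23 collagen genes tested, 8 were higher in J82 by large differences and 5 lower; 4 passed the filter through J82 alone and 2 through RT-112 alone. Tested collagens had a median log2 difference of 0.87, and 56.5% were large, against 20.7% over all genes. COL3A1, a fibrillar collagen, read 594, 589 and 525 CPM in J82 and 0.171, 0.135 and 0.0897 CPM in RT-112, a log2 difference of 12.04 (SE 0.14, adjusted p = 1.55e-14). COL5A2, another fibrillar chain, read 310.4, 366 and 302 CPM in J82 and 0.628, 1.61 and 2.24 CPM in RT-112, a log2 difference of 7.71 (SE 0.18, adjusted p = 8.98e-13). COL7A1, of anchoring fibrils, was higher in J82 at 4.76 ± 0.13, and COL6A3 at 3.93 ± 0.71. The basement membrane chains COL4A1, COL4A3 and COL4A4 were lower in J82 at -3.37 ± 0.075, -4.69 ± 0.46 and -5.62 ± 0.17. COL1A1 was low in both lines, at 0.950 ± 0.448 CPM in J82 and 2.68 ± 0.383 CPM in RT-112, and COL12A1 was not called, at 453 ± 9.23 CPM in J82 and 415 ± 30.5 CPM in RT-112 (adjusted p = 0.0975).

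Among 39 matrix glycoproteins and proteoglycans tested, 15 were higher in J82 by large differences and 8 lower. These matrix genes had a median log2 difference of 0.39, and 59% were large, against 20.7% over all genes. Of the 39, 6 passed the filter through J82 alone and 2 through RT-112 alone. POSTN, the stromal protein periostin, had 274, 248 and 234 CPM in J82 and 0 counts in every library in RT-112, at least 1717-fold higher in J82 (adjusted p = 4.58e-13). FSTL1 read 697, 787 and 697 CPM in J82 and 0.571, 0.852 and 1.03 CPM in RT-112, a log2 difference of 9.75 (SE 0.13, adjusted p = 1.67e-14). IGFBP5 also had 0 counts in RT-112, against 92.3 CPM in J82, and LAMA4 and SDC2 were higher there at 6.84 ± 0.32 and 4.47 ± 0.078. Lower in J82 were the syndecan of epithelia SDC1 (-4.06 ± 0.07), fibulin FBLN1 (-4.44 ± 0.11) and LUM, the proteoglycan lumican, at -3.65 ± 0.083. LUM and FBLN1 are usually linked to stromal cells, and DCN, another stromal proteoglycan, had 0 counts in every library. FN1, fibronectin, often counted as a mesenchymal gene, read 376, 323 and 270.4 CPM in J82 and 306, 355 and 285 CPM in RT-112, a log2 difference of 0.035 ± 0.11 (adjusted p = 0.785), and the groups overlapped.

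Matrix enzymes and inhibitors divided evenly, with 6 of 26 tested higher in J82 by large differences and 6 lower. The enzymes and inhibitors had a median log2 difference of 0.14. Large differences made up 46.2% of them, against 20.7% over all genes. Through J82 alone 3 passed the filter, and through RT-112 alone 2. LOXL2, a collagen crosslinker, was higher in J82 at 8.85 ± 0.25, the protease ADAMTS1 at 9.42 ± 0.11 and the lysyl hydroxylase PLOD2 at 3.54 ± 0.081. The gelatinase MMP2 and its membrane-bound activator MMP14 were lower in J82: MMP2 read 2.51, 1.68 and 1.18 CPM in J82 and 134, 159 and 129.8 CPM in RT-112, a log2 difference of -6.27 (SE 0.16, adjusted p = 1.64e-12), and MMP14 was at -4.34 ± 0.10. SERPINB5, or maspin, was lower at -6.72 ± 0.10. TIMP1 and PLAUR were not called, at 37.1 ± 0.0495 CPM in J82 and 40.0 ± 2.09 CPM in RT-112 and 32.2 ± 3.56 CPM in J82 and 32.4 ± 4.54 CPM in RT-112 (adjusted p = 0.203 and 0.958).

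Of 15 integrins tested, the matrix receptors, 2 were higher in J82 by large differences and 7 lower. Tested integrins had a median log2 difference of -0.40, and 60% were large, against 20.7% over all genes. The filter was passed by 1 through J82 alone and by 3 through RT-112 alone. ITGB6, the partner of alpha V in epithelia, had 0 counts in every library in J82 and 141, 136 and 158 CPM in RT-112, at least 970.3-fold higher in RT-112 (adjusted p = 9.41e-13). ITGB3 read 15.5, 12.3 and 14.2 CPM in J82 and 0, 0.135 and 0 CPM in RT-112, 292-fold higher in J82, with a 95% exact counting interval of 99.7 to 1421 (adjusted p = 7.88e-10). ITGA1, of a collagen receptor, was higher in J82 at 3.29 ± 0.14, and ITGA2, of another, was lower at -2.87 ± 0.11. The shared subunits ITGAV and ITGB1 differed little, at 0.28 ± 0.08 and -0.40 ± 0.075, and ITGB5 was not called, at 146 ± 1.38 CPM in J82 and 137 ± 4.74 CPM in RT-112 (adjusted p = 0.158). ITGA11 was called higher in J82 at 1.05 ± 0.290 CPM in J82 and 0.359 ± 0.323 CPM in RT-112, but it was no longer called without any 1 of 5 libraries (all 3 of J82, and RT-112 replicates 1 and 3; adjusted p up to 0.138) or with the replicate number as a block (adjusted p = 0.0724).

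**Figure D4:**
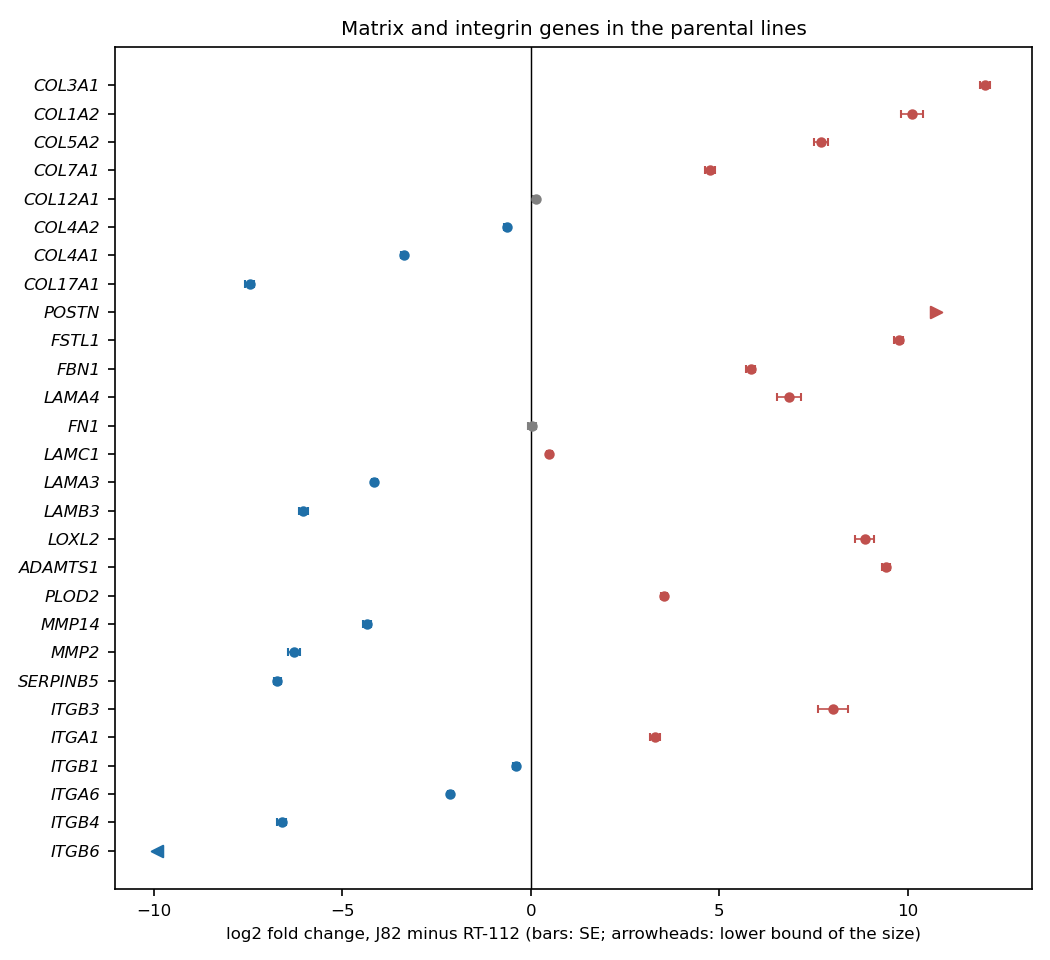
Log2 differences (horizontal axis, J82 minus RT-112, 3 libraries each) of collagens, matrix proteins and integrins, as points with a bar for the SE, grey where not called; an arrowhead is the lower bound for a gene at 0 counts in one line. COL3A1 reaches 12.04 and FN1 stays at 0.035.

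Of 28 cell cycle regulators and tumour suppressors tested, 17 were called higher in J82 and 8 lower, 4 large in each direction. Cell cycle genes had a median log2 difference of 0.59. Large differences made up 28.6% of them, against 20.7% over all genes, where 36.6% were called higher and 37% lower. Through J82 alone 4 passed the filter, and through RT-112 alone 1. CDKN2A, which encodes p16 and ARF, read 192, 180.0 and 177 CPM in J82 and had 0 counts in every library of RT-112, at least 1246-fold higher in J82 (adjusted p = 2.60e-13). CDKN2B and MTAP also had 0 counts in RT-112, against 70.1 and 133 CPM in J82, and together with CDKN2B-AS1, UBA52P6 and DMRTA1 they formed a run of 6 neighbouring genes at or under 0.1 CPM in every RT-112 library and at or above 1 CPM in every J82 library. CDKN1A, the p53 target p21, read 6.79, 8.34 and 9.26 CPM in J82 and 81.3, 81.2 and 83.9 CPM in RT-112, a log2 difference of -3.34 (SE 0.10, adjusted p = 7.44e-12). MYCL was lower in J82 at -3.93 ± 0.22 and FHIT higher at 4.35 ± 0.57. RB1, E2F1 and CCND1 were called higher in J82 by smaller differences, 0.56 ± 0.058, 1.46 ± 0.079 and 0.87 ± 0.06.

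Over all genes, the 12 with the largest difference in each direction, a mean of at least 10 CPM and no overlap included several outside the lists. All of them had 0 counts in one line, so their order rests on fitted values that are no measured fold, and their lower bounds (for SLFN11 9.51, for ESRP1 -10.46) are smaller than the differences of some other genes, such as COL3A1 and FABP4. Higher in J82 were PSIP1, a chromatin protein, with 739, 781 and 713 CPM against 0 counts in every library of RT-112; SULF1, an enzyme that trims heparan sulfate, at 583 CPM on average; IFI44L, an interferon-induced gene, at 275 CPM; FLNC, a filamin, at 209.9 CPM; and PTGR1, a prostaglandin reductase, at 213 CPM. GFRA1 (a GDNF co-receptor), ANKRD30B, PSG1, POSTN, CDKN2A, MTAP and SLFN11 completed the 12. Lower in J82 beside KRT13, KRT5, UPK1B, KRT4, EHF, S100A9, GRHL2, ELF3, ESRP1 and LAD1 were TMPRSS4, a membrane protease, at 379.9 CPM in RT-112, and TCEAL9 at 305 CPM.

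The line difference was then read in the 3 pairs of derived lines, which share no library with the parental pair. In the CD44 Low pair 10432 of 15823 genes passed the test (65.9%), in the CD44 High pair 9664 of 15798 (61.2%) and in the CD44v6 pair 9809 of 15718 (62.4%). Of the 1707 genes with a large difference higher in parental J82, 1495 (87.6%) had one in the same direction in the CD44 Low pair, 1471 (86.2%) in the CD44 High pair and 1480 (86.7%) in the CD44v6 pair. These are 81.8%, 84.6% and 81.3% of the large differences higher in J82 of those pairs. Of the 1606 lower ones, 1364 (84.9%), 1272 (79.2%) and 1270 (79.1%) recurred, or 84.2%, 90.9% and 90% of the pairs' own. In all 3 derived pairs together, 1275 of the higher (74.7%) and 1104 of the lower genes (68.7%) were again large. Over all genes tested in those pairs, large differences higher in J82 made up 11.5%, 11% and 11.6%, and lower ones 10.2%, 8.86% and 8.98%. Of all these genes, 1 was called in the opposite direction in a derived pair, FOSB in the CD44 Low pair.

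CDH1, VIM, FGFR3 and TGFB2 kept their direction in all 4 pairs, with different sizes. CDH1 was at -6.96 ± 0.09 in the parental pair, -5.96 ± 0.14 in CD44 Low, -9.19 ± 0.16 in CD44 High and -7.58 ± 0.13 in CD44v6. VIM was at 7.60 ± 0.10 in the parental pair, 7.29 ± 0.28 in CD44 Low, 9.48 ± 0.53 in CD44 High and 8.52 ± 0.23 in CD44v6, and FGFR3 at -5.82 ± 0.11 in the parental pair, -5.91 ± 0.21 in CD44 Low, -6.09 ± 0.21 in CD44 High and -5.81 ± 0.16 in CD44v6. TGFB2 was at 7.07 ± 0.10 in the parental pair, 9.39 ± 0.33 in CD44 Low, 4.80 ± 0.54 in CD44 High and 5.85 ± 0.66 in CD44v6. FN1, not called in the parental pair, was at 0.035 ± 0.11 in the parental pair, 0.98 ± 0.17 in CD44 Low, -0.75 ± 0.23 in CD44 High and -1.04 ± 0.28 in CD44v6. In the 3 derived pairs its adjusted p was 0.000604, 0.0214 and 0.0121, so it was called in each, higher in J82 in CD44 Low and lower in the other two. The test of the parental line difference against the mean of the derived ones gave 0.32 ± 0.29 for FN1 (adjusted p = 0.883), and the derived pairs were not tested against each other. Over 17438 genes that test called 3 (0.0172%), FOS, JUNB and FOSB, all with a lower value in the parental pair. The count was 2 to 3 without any other parental library, but 0 without J82 parental replicate 1 (972 genes at an unadjusted p under 0.05, edgeR) and 5 without RT-112 parental replicate 3.

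**Figure D5:**
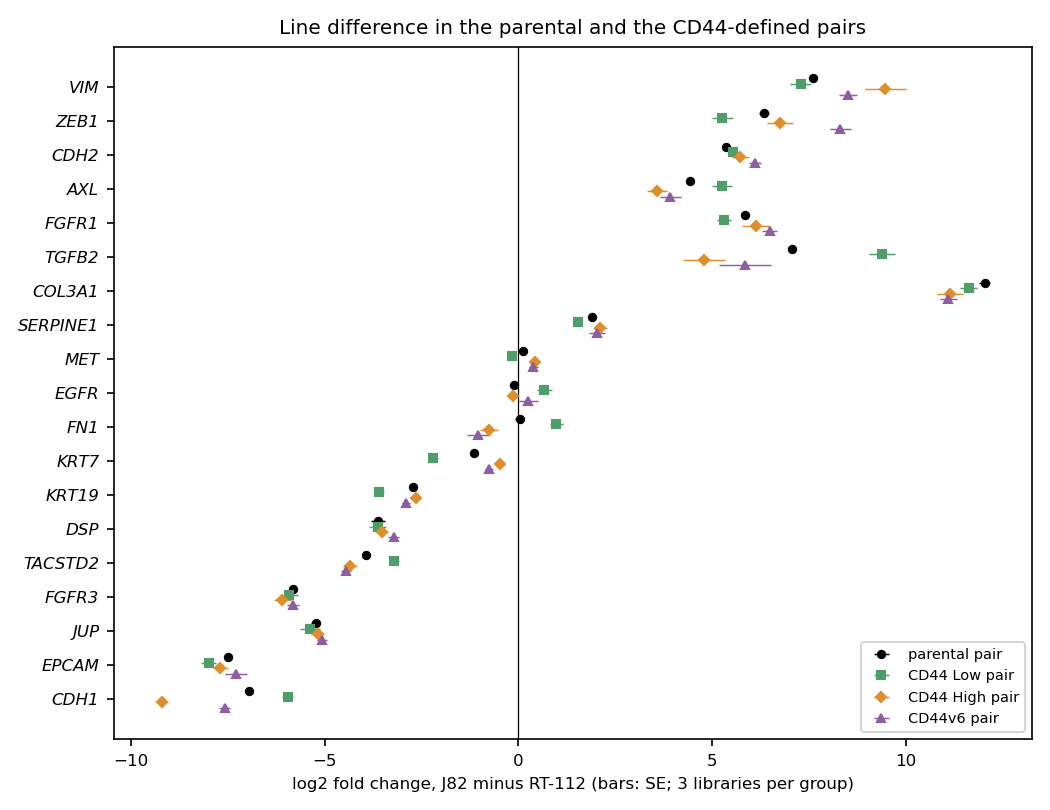
Log2 difference between J82 and RT-112 of named genes in the parental, CD44 Low, CD44 High and CD44v6 pairs; the horizontal axis is the fitted log2 difference with bars for the SE, from 3 libraries a group, and the vertical line marks no difference. CDH1 lies left of the line and VIM right of it in all 4 pairs, and FN1 lies on both sides.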

How the data were processed

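Total RNA of cultured cells was sequenced, and the authors deposited 1 table of raw read counts per gene symbol with a column for each of the 24 libraries; 0 of its value columns had no matching sample. HISAT2, StringTie and GRCh37 are named in the submitters' processing notes, with no role, version or annotation, and whether counting used strand is not given in the sources used here, so antisense and overlapping genes are uncertain. The table held no mitochondrial gene. From the counts, edgeR 4.0.16 (R 4.3.3) kept genes by filterByExpr (a count of about 10 in 3 libraries, here 0.487 CPM), scaled libraries by TMM and ran the quasi-likelihood test on the 6 parental libraries, with Benjamini-Hochberg adjustment over all genes tested and a threshold of 0.05. The common biological coefficient of variation was 0.0902. The derived pairs were tested in the same way, and the parental difference was compared with their mean in a fit of all 24. On simulated data of this size, the parental test over 15873 genes found 94 of 100 differences of log2 size 1. It found 100 of 100 of size 2. The test of line differences over 24 libraries and 16569 genes found 92 and 100. Unchanged genes that were called numbered 16 in the first test and 13 in the second. Every simulated gene had the same fixed spread, not taken from these data, and only genes above a count limit were changed. These shares therefore do not give the power of either test in the real libraries.

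The members and gene lists were chosen with earlier results of these data known, and the 25 lists hold 594 genes, of which 499 were tested. Genes named by rule are, per list, up to 5 called genes at each end of the log2 difference, the 4 marker genes, the 12 most changed genes each way with a mean of at least 10 CPM, and neighbouring runs of at least 4 genes off in one line. Other list members in the text, such as EGFR, MET, FN1, KRT7, ZEB1, PKP2 and QKI, were chosen after their values were seen. Names and gene order came from RefSeq (GRCh38.p14), which matched 34000 symbols (94.5%), and no coordinate other than those of the promoters is printed. Intervals and floors cover counting error only. DESeq2 1.42.0 and limma 3.58.1 (voom) were alternatives. A few list members are not reported here.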

Additional observations from a re-analysis of the deposited data

Results flagged for a closer look

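The line difference of 3 genes of the AP-1 family of early response factors was lower in the parental pair than in the mean of the CD44-defined pairs, by the test of that difference in edgeR over 24 libraries. For FOS the difference between differences was -1.83 on the log2 scale (adjusted p = 0.00584), for JUNB -1.48 (adjusted p = 0.00584) and for FOSB -1.91 (adjusted p = 0.0461). In CPM scaled over all 24 libraries, FOS was at 34.3 ± 11.9 in parental J82 and at 163 to 193 on average in the derived J82 groups, against 257 ± 37.2 in parental RT-112 and 350.1 to 392 in the derived RT-112 groups. JUNB was at 36.9 ± 1.87 in parental J82 and 90.5 to 112 in the derived J82 groups, against 185 ± 14.2 in parental RT-112 and 166 to 198 in its derived groups. FOSB was at 14.0 ± 6.85 in parental J82 and 72.6 to 102 in its derived groups, against 59.9 ± 7.44 and 72.3 to 115 in RT-112. Without J82 parental replicate 1, none of the 3 was called (adjusted p = 0.0711 for FOS and JUNB and 0.211 for FOSB), and of the 6 leave-outs FOSB was called only without J82 replicate 3 (adjusted p = 0.0114, against 0.0594 to 0.211 in the other 5). Values are means ± SD over 3 libraries. The cause was not tested.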

How the results depend on the processing

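None of the 214 genes named by rule (the named genes below) changed direction under an alternative run that tested it. Other list members in the text were not among them, such as CDH2, ZEB1, FGFR1, AXL, EPCAM, DSP, EGFR, MET and FN1. Whether the direction or call of those other members held in each alternative run was not tested. The median log2 difference over all genes did change sign, from -0.023 without J82 parental replicate 2 to 0.023 with no filter. The balance of calls also turned in some runs. With median-of-ratios size factors 5929 genes were called higher in J82 and 5842 lower, against 5859 and 5923 in the main run. Large parental differences numbered 3313 and stayed within 1.5 times of that, from 3285 to 4334, except with a mean of at least 50 counts, which tests fewer genes (2042, of which 1043 higher in J82 and 999 lower). The genes called fell from 11782 to 4839 (2495 higher, 2344 lower) with glmTreat, which asks for a log2 change above 1. With the replicate number as a block (replicate block), 11437 genes were called and 3332 were large. Same-numbered libraries of the lines did not deviate together (correlations -0.0117, -0.0252 and -0.0448), and they were not treated as pairs. Whether a number marks a shared batch was not tested. In the comparison of the parental with the derived pairs, the block was a different one, the replicate number within each line. It gave 10 calls in place of 3, with an adjusted p in edgeR of 1.8e-05 for FOS and JUNB and 0.0307 for FOSB. Leaving out each parental library gave 0 to 5 calls. The cause was not tested. Of 214 named genes, 22 lost their call with glmTreat, among them KRT8, KRT18, TJP1 and NOTCH2, 6 with all 24 libraries in the fit, and at most 3 under each other alternative; with a mean of at least 50 counts only 169 of the 214 were tested, and 0 of those lost their call. With a mean of at least 50 counts, large differences (higher and lower in J82) fell from 3 and 5 to 1 and 2 for HOX and from 7 and 8 to 4 and 4 for WNT genes, those higher fell from 8 to 5 for collagens, 7 to 4 for growth factor ligands, 2 to 1 for gap junction and 1 to 0 for basal genes, and those lower from 5 to 3 for mesenchymal and 2 to 1 for other cell type genes. With no filter, large differences higher in J82 went from 0 to 3 for NOTCH and Hedgehog, 3 to 5 for HOX and 2 to 5 for other cell type genes; with all 24 libraries NOTCH and Hedgehog had 1. Depth limits the genes near the filter of 0.487 CPM.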

Other observations

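Besides the run at CDKN2A, 4 other runs of neighbouring genes were at or under 0.1 CPM in every library of one line and at or above 1 CPM in every library of the other, counted among the genes tested in RefSeq order. Schlafen genes, which include SLFN11, a factor linked to the response to DNA damage, formed one run: SLFN11 averaged 107 ± 7.52 CPM in J82, SLFN12 50.3 ± 1.45 CPM and SLFN13 15.8 ± 0.759 CPM, each with 0 counts in RT-112. Pregnancy-specific glycoproteins, normally made by the placenta, formed another, with PSG1 at 281 ± 24.1 CPM, PSG2 at 54.6 ± 3.39 CPM and PSG6 at 14.2 ± 2.26 CPM in J82 and 0 counts in RT-112. These are near-identical copies, so counts may be divided uncertainly among them. A further run held CCDC171, BNC2, CNTLN, SH3GL2 and ADAMTSL1, with CNTLN at 75.4 ± 6.42 CPM in J82. The single run off in J82 held KRT6B, KRT6C, KRT6A, KRT5, KRT1 and KRT77. In all, 363 genes were off in J82 by these limits and 447 were off in RT-112, of 15372 genes that could be placed.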
